A study of Mus musculus with 4 samples.

Results

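This account is of 10 transcription factor genes of the lung mesenchyme, Tcf21, Tbx4, Tbx5, Tbx2, Tbx3, Foxf1, Meox2, Nr2f1, Nr2f2 and Osr1, in sorted cells of embryonic mouse lung. They were taken by symbol from the 32285 genes of each of 4 count matrices, and each of the 10 had a row in every matrix. The study asked what Myrf, which encodes a membrane-bound transcription factor, does in mesothelial cells, which line the outer surface of the lung. The mutants (2 libraries) and the Cre controls (2 libraries) came from matings of Myrf Fl/Fl;R26TdTomato/R26TdTomato with Wt1creERT2;Myrf Fl/Fl mice, and the labels do not state the Myrf alleles that the controls carried. By the labels both groups carried Cre. Wt1creERT2 is a tamoxifen-dependent Cre recombinase made where Wt1 is expressed, and R26TdTomato is a reporter that remains active in every cell that has recombined and in its progeny. Tamoxifen was injected at E12.5 (embryonic day). At E16.5, embryos were sorted into genotypes by the look of their lungs and cells, with PCR afterwards, and 3 to 5 lungs went into each pool. About 50000 living tdTomato-positive cells were sorted and about 16000 were loaded per genotype for droplet sequencing of transcript 3' ends. The labels leave unsaid whether libraries of 1 genotype came from different pools, so p-values measure only the spread between these libraries, which may be technical.

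The mesenchyme of the lung forms from splanchnic mesoderm and gives rise to fibroblasts, airway and vascular smooth muscle, and pericytes, while the mesothelium remains as a covering sheet. T-box, forkhead, basic helix-loop-helix, homeobox and orphan nuclear receptor genes are used in this tissue in overlapping combinations, and in mouse embryos loss of several of them disturbs branching of the airway or the formation of its muscle. A cell's set of these factors is therefore often used to describe what kind of mesenchymal cell it is.

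The mutant libraries held 411 and 4275 kept cells with 20954282 and 80755665 UMIs (unique molecular identifiers, each a captured transcript), and the control libraries held 281 and 3503 cells with 8175944 and 58045818 UMIs. No pair of libraries shared more than 5 of the deposited barcodes. Myrf itself stood at 19.1 and 7.22 CPM (UMIs of the gene per 1000000 UMIs) in mutants and at 76.0 and 48.5 CPM in controls. The 3' tag may lie outside the deleted part of the gene, in which case it does not check the deletion. Cells with Xist and no Y-linked transcript made up 64.7 and 82.8% of the cells with either in mutants, and 23.6 and 56.2% in controls, and the part of this difference in the results was not tested. The labels call the samples mesothelial cells, but mesothelial-like cells, defined by Upk3b and other markers, numbered 2 and 3 in the mutant libraries, and 118 and 745 in the control libraries. Mutants held 260 and 1443 cells called muscle-like from a list of sarcomere genes, against 1 and 21 in controls. Most of them, 227 and 1194 in mutants, were cluster 4, led by Des and Ankrd1, where 3 of 12 sarcomere and 3 of 16 smooth muscle markers passed. The other 33 and 249 were cluster 7, led by Actc1, where 6 of 12 and 12 of 16 passed. In a finer clustering, a cluster of 122 and 705 mutant cells and 1 and 12 control cells, led by Adam23 and Spock2, stayed unnamed, with at most 2 markers of any list passing. Fibroblast-like cells numbered 90 and 2392 in mutants and 87 and 493 in controls, and smooth muscle-like cells 26 and 286 in mutants and 19 and 154 in controls. A further 2029 barcodes of control library 2 formed a cluster in which 82.3% of all markers lay within 2-fold of their level in the rest of that library. It was left unnamed as mixed. By the marker rule alone it would have been named mesothelial-like, with 9 of 21 mesothelial markers passing and at most 2 of any other list. The counts and levels of mesothelial-like cells of control library 2 leave these barcodes out. In a sum over all cells of a library, fewer cells of a type and less RNA per cell cannot be told apart.

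Among these sorted cells, Tcf21 and Meox2 were highest in 1 fibroblast-like cluster. Tcf21 was also high in the 26 pericyte-like cells of mutant library 2, but rested on only 4 and 12 UMIs in those of controls. Meox2 was at intermediate levels in the few pericyte-like cells and in a small fibroblast-like cluster. The 4 classes described here were fibroblast-like and smooth muscle-like cells of both genotypes, muscle-like cells of mutants and mesothelial-like cells of controls. In all of them Tbx4, Tbx5, Tbx2, Foxf1, Nr2f1, Nr2f2 and Osr1 lay above the epithelial-like level of the same library. For Tbx2, Tbx5 and Nr2f1 in mesothelial-like cells of control library 1, this excess lay within the counting interval of the epithelial-like level. Among these classes Tbx3 and Tbx5 were highest in smooth muscle-like and fibroblast-like cells, and Osr1 had its highest levels in 2 small clusters. None of the 10 genes passed the reported mutant against control test, which had no replicate block, in all sorted cells, in fibroblast-like cells or in smooth muscle-like cells. An alternative fit with such a block called Nr2f1 in all sorted cells. The largest difference in a class was that of Tcf21 in fibroblast-like cells, at -1.02 ± 0.52 on the log2 scale (mutant over control, SE).

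**Figure D1:**
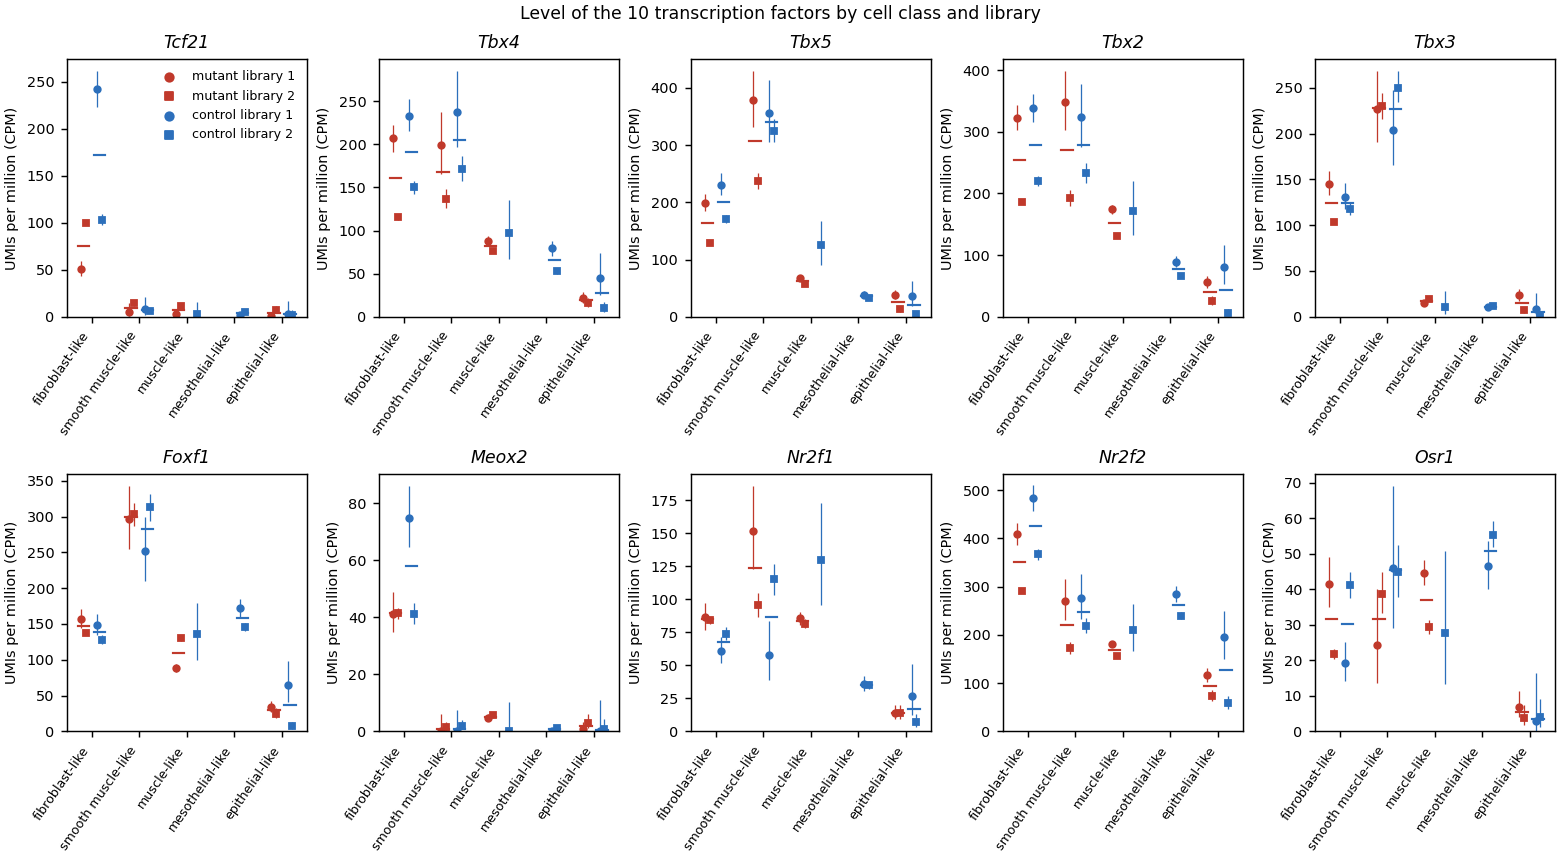
Level of each gene in CPM (vertical axes, linear, from 0) in 5 cell classes, mutant libraries in red left of control libraries in blue. Points are single libraries with at least 15 cells of the class, bars their exact Poisson interval (95%, counting error only), and short lines the mean of 2 libraries. Tcf21 and Meox2 stand above the other classes only in fibroblast-like cells, and the control point for muscle-like cells is 21 cells of control library 2.

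Tcf21 encodes a basic helix-loop-helix factor that is needed in mouse for the growth of lung mesenchyme and marks lipid-storing fibroblasts there. Meox2 is a homeobox gene known in mouse for somite and limb muscle development. The 250 bases before the RefSeq start of these genes are shown because both genes were high in the same fibroblast-like cluster and their levels followed each other across cell classes. They are given 5' to 3' on the strand of each gene from RefSeq, build GRCm38.p6, as chr10:22820144-22820393 (minus strand) for Tcf21 and chr12:37108290-37108539 (plus strand) for Meox2.
Tcf21: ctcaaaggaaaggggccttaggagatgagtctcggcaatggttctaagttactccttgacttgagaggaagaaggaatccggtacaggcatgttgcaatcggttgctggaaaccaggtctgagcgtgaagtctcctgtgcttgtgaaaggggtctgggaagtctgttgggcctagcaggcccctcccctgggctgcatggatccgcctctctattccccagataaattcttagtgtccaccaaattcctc
Meox2: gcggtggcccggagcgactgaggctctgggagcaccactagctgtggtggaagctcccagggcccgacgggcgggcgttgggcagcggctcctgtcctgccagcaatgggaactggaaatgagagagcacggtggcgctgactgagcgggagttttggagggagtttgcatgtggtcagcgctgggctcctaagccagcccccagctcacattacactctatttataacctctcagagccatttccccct
Neither stretch held the T-box half-site GGTGTGA, the forkhead core GTAAACA, the nuclear receptor half-site AGGTCA or the E-box CAGCTG on either strand, so no letter stands in capitals. Among 32851 mouse promoter stretches, 3.33, 3.17, 14 and 13% held these motifs, in the same order. Promoter entries were matched for 5 of the 10 genes, and in the other 3 of those 5, a motif was found in Tbx4 (an E-box) and in 1 of 2 entries of Nr2f1 (a forkhead core). The stretches with a motif, chr11:85896515-85896764 and chr13:78196450-78196699, lie inside these genes as placed by GENCODE M21. They are thus not the bases before the first base of the gene.

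Tcf21 stood at 50.8 and 100 CPM in fibroblast-like cells of mutants and at 242 and 103 CPM in those of controls. Both mutant libraries lay below both control libraries, as for 13.8% of all 12496 genes tested in these cells, but mutant library 2 and control library 2 were nearly level, and control library 1 stood apart from the other 3. In smooth muscle-like cells Tcf21 was at 4.86 and 14.1 CPM in mutants and at 8 and 6.48 CPM in controls. It was at 3.02 and 11 CPM in muscle-like cells of mutants and at 1.67 and 5.32 CPM in mesothelial-like cells of controls. Epithelial-like cells, a type that should lack the gene, had 0.870 and 7.26 CPM in mutants and 2.96 and 2.36 CPM in controls. They are few and not free of other RNA: in the 23 cells of control library 1, fibroblast markers summed to 6090 CPM, mesothelial markers to 3220 CPM and epithelial markers to 3270 CPM, against 1850, 1030 and 28400 CPM in the 58 cells of mutant library 2. With every cell thinned to 5000 UMIs, 0.803 and 3.47% of muscle-like cells of mutants had a Tcf21 UMI, against 6.67 and 4.26% of epithelial-like cells of the same libraries. Without thinning the shares were 6.54 and 13% of muscle-like cells (median depth 42321 and 15589 UMIs), and 10.5 and 17.2% of epithelial-like cells (38719 and 21587 UMIs). The epithelial-like shares after thinning rest on 1 of 15 and 2 of 47 cells. Muscle-like cells of mutants were thus below epithelial-like cells by share and above them by CPM without thinning, and no order is read from this. In pericyte-like cells, with 26 cells in mutant library 2, Tcf21 reached 134 CPM. Mutant library 1 had 5 Tcf21 UMIs in 2 such cells. Controls had 4 UMIs in 11 such cells of library 1 and 12 UMIs in 10 of library 2. Pericyte-like cells gave 0.616% of Tcf21 UMIs and 1.79% of all UMIs in control library 1. In control library 2 they gave 0.52% of Tcf21 UMIs and 0.306% of all UMIs. Gm10824, an antisense gene that overlaps Tcf21, had at most 1 CPM in all sorted cells of any library.

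Meox2 was at 41.3 and 41.4 CPM in fibroblast-like cells of mutants and at 74.8 and 41.3 CPM in those of controls, so that 3 libraries were level and control library 1 was higher. It was at 0 and 1.55 CPM in smooth muscle-like cells of mutants and at 0 and 1.77 CPM in those of controls. The exact Poisson interval (95%) of the 0 in mutant library 1 reached 5.98 CPM in its 26 cells, and that in control library 1 reached 7.38 CPM in 19 cells. Muscle-like cells of mutants had 4.74 and 5.56 CPM and mesothelial-like cells of controls 0.239 and 1.11 CPM. Epithelial-like cells had 0.870 and 2.99 CPM in mutants and 0 and 0.786 CPM in controls. Over 17 profiles (a class in a library with at least 20 cells), the log2 levels of Tcf21 and Meox2 had a Pearson r of 0.927, as a description, since profiles share libraries and depth. Among 6729 genes with a mean of at least 20 CPM, Gyg, Snai2 and G0s2 were most like Tcf21 (r of 0.937, 0.904 and 0.892), and Tcf21, Gyg and Cep192 most like Meox2 (0.927, 0.926 and 0.914). Gm48617, which starts upstream of Meox2 on the same strand and overlaps it, had 0.859 and 1.32 CPM in all sorted cells of mutants and 4.28 and 0.706 CPM in those of controls.

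The fibroblast-like class was made of 3 clusters, and Tcf21 and Meox2 separated them although neither gene was used to form the clusters. Cluster 2, led by Smim41, Slc38a5 and Adh1, had 196 and 176 CPM of Tcf21 in mutants and 478 and 284 CPM in controls. Cluster 3, led by Ibsp, Lef1, Tcf7 and Pdgfra, had 7.49 and 27.9 CPM in mutants and 17.8 and 14.3 CPM in controls. Cluster 11, led by Dpt and Agtr2, had 4.80 CPM of Tcf21 in the 67 cells of control library 2. The 2 larger clusters thus did not overlap in Tcf21 in any library, and Tcf21 was among the 10 leading genes of cluster 2. Meox2 was also highest in cluster 2, with 151 and 68.1 CPM in cluster 2 of mutants and 137 and 96.8 CPM in cluster 2 of controls, against 8.67 and 15.7 CPM in cluster 3 of mutants and 16.3 and 9.57 CPM in cluster 3 of controls. In cluster 11 Meox2 was at 43.7 CPM in the 14 cells of mutant library 2 and at 27 CPM in the 67 cells of control library 2, between clusters 2 and 3 of those libraries. In pericyte-like cells of the same libraries it was at 46.7 and 22.5 CPM. Cluster 2 gave 29 of the 90 fibroblast-like cells of mutant library 1 and 1277 of the 2392 of mutant library 2, and 41 of the 87 of control library 1 and 196 of the 493 of control library 2.

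With cluster 2 tested alone, a choice made after seeing the data, Tcf21 differed by -0.96 ± 0.36 (log2, mutant over control, SE) and did not pass edgeR's test after adjustment (adjusted p = 1). With cluster 3 alone it differed by 0.46 ± 0.57 (edgeR adjusted p = 1). A finer clustering divided most of cluster 2 into a group led by Limch1, with G0s2, and a larger one led by Slc38a5. Tcf21 stood at 226 and 419 CPM in the 17 and 106 Limch1 cells of mutants and at 569 and 314 CPM in the 32 and 141 of controls. In the Slc38a5 cells it stood at 168 CPM in the 1063 cells of mutant library 2 and at 195 CPM in the 57 cells of control library 2, and the number 1 libraries held 12 (mutant) and 9 (control) such cells, too few for a level. Within the Limch1 group the genotypes overlapped, and the 2 groups were held in very different proportions by the libraries. The part of these proportions in the Tcf21 difference of cluster 2 was not tested.

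**Figure D2:**
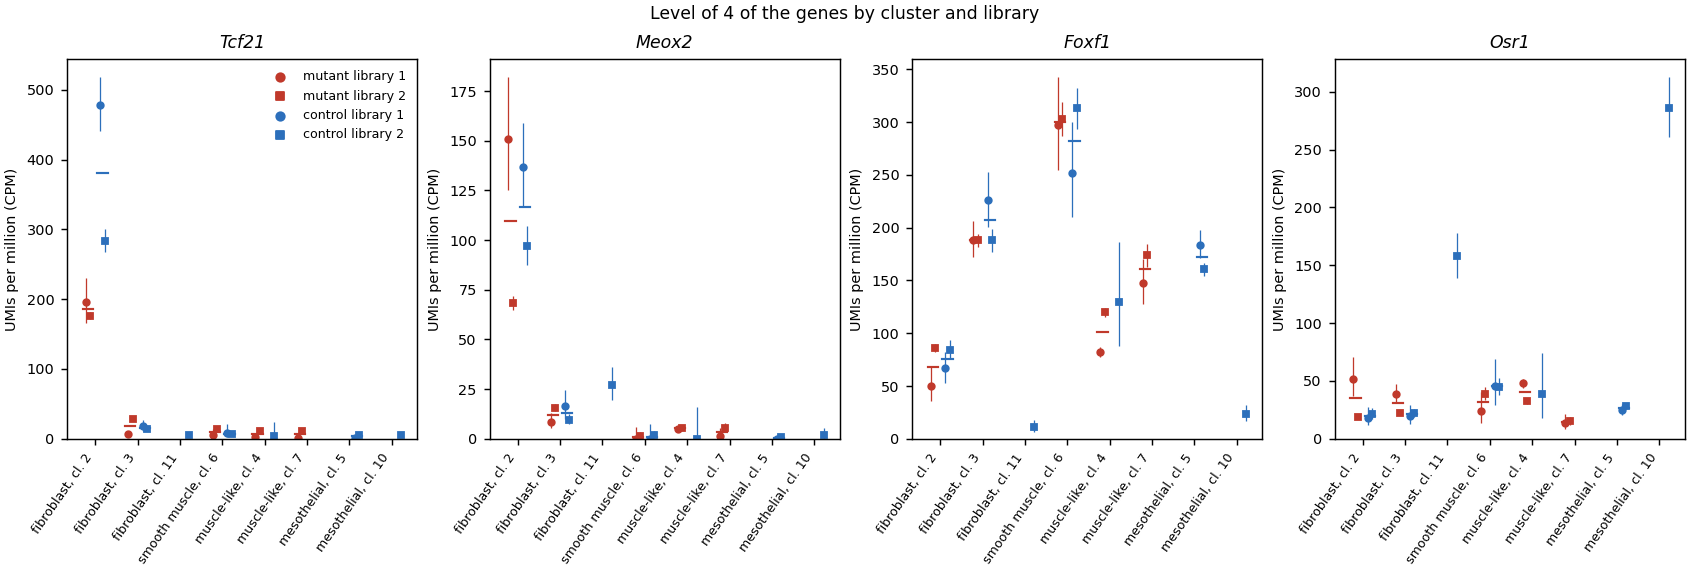
Level of Tcf21, Meox2, Foxf1 and Osr1 in CPM (linear axes from 0) by cluster, mutant libraries in red left of control libraries in blue, for clusters with at least 15 cells in a library. Points are libraries with exact Poisson intervals (95%, counting error only) and short lines are means of 2 libraries. Among the 8 clusters drawn Tcf21 and Meox2 are highest in cluster 2, and Osr1 in clusters 10 and 11.

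The T-box genes Tbx4 and Tbx5 mark the lung bud mesenchyme and act together in mouse on Fgf10 expression and branching, and Tbx2 and Tbx3 are repressors that keep mesenchymal cells dividing. In mm10 (GENCODE M21) Tbx2 lies on chromosome 11 from 85832551 to 85841948 and Tbx4 from 85886422 to 85916097, with 44473 bases and 1 protein-coding gene between them. Tbx3 (119670669 to 119684724) and Tbx5 (119832668 to 119885219) lie on chromosome 5, with 147943 bases and no protein-coding gene between them. All 4 genes are on the plus strand. Of the noncoding genes on the other strand near them, Gm43050 (near Tbx5) had 18.6 and 36.6 CPM in all sorted cells of mutants and 26.5 and 31.5 CPM in those of controls. Tbx3os1, which overlaps Tbx3, had 10.7 and 18.5 CPM in all sorted cells of mutants and 24.2 and 21.9 CPM in those of controls. In smooth muscle-like cells Tbx3os1 reached 98.8 and 45.8 CPM in mutants and 73.4 CPM in control library 2, and in fibroblast-like cells 37.1 and 27.8 CPM in mutants and 53.8 and 32.4 CPM in controls. 2610027K06Rik, near Tbx2, had 5.15 and 6.81 CPM in mutants and 7.83 and 5.62 CPM in controls.

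Tbx4 was at 207 and 116 CPM in fibroblast-like cells of mutants and at 233 and 150 CPM in those of controls. In smooth muscle-like cells it was at 199 and 137 CPM in mutants and at 238 and 172 CPM in controls. The number 1 libraries were higher than the number 2 libraries in both genotypes and both classes, by more than the genotypes differed. The level was 88.3 and 76.7 CPM in muscle-like cells of mutants and 79.3 and 52.8 CPM in mesothelial-like cells of controls, which overlap. Epithelial-like cells had 21.8 and 16.2 CPM in mutants and 44.5 and 10.2 CPM in controls.

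Tbx2 was likewise higher in fibroblast-like and smooth muscle-like cells than in the other classes described, and among the genes compared its profile was the most like that of Tbx4 (r of 0.977 over 17 profiles). It was at 322 and 186 CPM in fibroblast-like cells of mutants and at 338 and 220 CPM in those of controls, and at 348 and 193 CPM in smooth muscle-like cells of mutants and 324 and 233 CPM in those of controls. The 174 and 131 CPM of muscle-like cells of mutants lay above the 89.5 and 66.1 CPM of mesothelial-like cells of controls. Hoxb3 came second for both Tbx2 and Tbx4 (r of 0.964 and 0.957), followed by Gm10848 (0.952) for Tbx2 and Tbx5 (0.954) for Tbx4.

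Tbx5 was highest in smooth muscle-like cells among the 4 classes of each library, at 378 and 237 CPM in mutants and at 356 and 325 CPM in controls. It was at 199 and 129 CPM in fibroblast-like cells of mutants and at 231 and 170 CPM in those of controls. Muscle-like cells of mutants had 68.3 and 57.9 CPM and mesothelial-like cells of controls had 38.7 and 33.1 CPM. Epithelial-like cells had 38.3 and 13.2 CPM in mutants and 35.6 and 3.93 CPM in controls, and the 35.6 CPM of control library 1 are 12 UMIs in 23 cells. Hoxb3 (0.975), Tbx4 (0.954) and Tbx2 (0.951) were most like it.

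Tbx3 divided the classes more sharply. Smooth muscle-like cells had 227 and 230 CPM in mutants and 204 and 250 CPM in controls, and fibroblast-like cells had 145 and 104 CPM in mutants and 131 and 118 CPM in controls. In contrast, muscle-like cells of mutants had 15.3 and 19.1 CPM and mesothelial-like cells of controls 10.7 and 11.3 CPM. Epithelial-like cells had 23.5 and 6.83 CPM in mutants and 8.89 and 1.57 CPM in controls. The Tbx3 levels of muscle-like and smooth muscle-like cells did not overlap in the mutant libraries. After thinning, 6.83 and 8.29% of muscle-like cells of mutants had a Tbx3 UMI, against 13.3 and 4.26% of epithelial-like cells there, and without thinning 41.5 and 24.6%, against 21.1 and 10.3%. Tbx3 was also found in endothelial-like cells, with 105 CPM in the 47 cells of mutant library 2. Gng2, Lef1 and Sema6d were most like Tbx3 (r of 0.945, 0.931 and 0.927).

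Foxf1 encodes a forkhead factor that responds to hedgehog signals and is needed in mouse for lung mesenchyme and vessels. Among the 4 classes it was highest in smooth muscle-like cells, at 297 and 303 CPM in mutants and at 252 and 313 CPM in controls. Fibroblast-like cells had 157 and 137 CPM in mutants and 149 and 128 CPM in controls. Muscle-like cells of mutants had 88.3 and 130 CPM, and mesothelial-like cells of controls had 172 and 146 CPM. Between clusters 2 and 3 of the fibroblast-like class it ran opposite to Tcf21, with 50.4 and 86.0 CPM in cluster 2 of mutants and 66.8 and 84.1 CPM in cluster 2 of controls, against 188 and 188 CPM in cluster 3 of mutants and 226 and 188 CPM in cluster 3 of controls. Cluster 11 had 11.4 CPM of Foxf1 in control library 2, within the range of epithelial-like cells, at 33.9 and 24.8 CPM in mutants and 65.2 and 7.08 CPM in controls. Fendrr, a noncoding RNA gene that starts 1276 bases from Foxf1 on the other strand, had the profile most like it (r of 0.932), with 183 and 168 CPM in smooth muscle-like cells of mutants and 102 and 64.6 CPM in fibroblast-like cells of mutants, against 70.3 and 93.7 CPM in fibroblast-like cells of controls. Gypc (0.902) and Tle1 (0.876) came next.

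Nr2f1 and Nr2f2 encode the COUP-TF orphan nuclear receptors, and Nr2f2 is known in mouse for its part in vein identity and in visceral mesoderm. Nr2f1 was at 86.3 and 84.1 CPM in fibroblast-like cells of mutants and at 61.1 and 73.9 CPM in those of controls, where both mutants lay above both controls, as for 8.12% of all genes tested there. The groups overlapped in smooth muscle-like cells, with 152 and 95.5 CPM in mutants and 58.0 and 115 CPM in controls. Muscle-like cells of mutants had 85.5 and 81.5 CPM, and mesothelial-like cells of controls had 35.8 and 35.0 CPM. Both classes lay above the epithelial-like cells, at 13.9 and 14.1 CPM in mutants and 26.7 and 7.08 CPM in controls. A830082K12Rik, an antisense gene that overlaps Nr2f1, had 12.9 and 8.54 CPM in all sorted cells of mutants and 14.1 and 7.67 CPM in those of controls. The use of strand in the counting is not given in the sources used here, so reads of such a pair cannot be told apart. Bcas3, Hoxb4 and Adgrg6 were most like Nr2f1 (r of 0.917, 0.908 and 0.899).

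Nr2f2 was at 409 and 292 CPM in fibroblast-like cells of mutants and at 483 and 367 CPM in those of controls. Within that class it was highest in cluster 2, at 678 and 352 CPM in mutants and 685 and 582 CPM in controls. The 181 and 157 CPM of muscle-like cells of mutants lay below the 285 and 240 CPM of mesothelial-like cells of controls. Smooth muscle-like cells had 271 and 172 CPM in mutants and 276 and 218 CPM in controls, and pericyte-like cells had 662 CPM in the 26 cells of mutant library 2. Epithelial-like cells had 117 and 73.0 CPM in mutants and 196 and 58.2 CPM in controls. B130024G19Rik, which overlaps Nr2f2 on the other strand, had the profile most like it (r of 0.945), before Igf2r (0.904) and Maged2 (0.884). It had 24.2 and 27.1 CPM in all sorted cells of mutants and 46.6 and 25 CPM in those of controls.

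Osr1 encodes a zinc finger factor of early mesoderm that in Xenopus is needed for Wnt-dependent specification of the lung. Over the 4 classes Osr1 lay between 19.1 and 55.3 CPM, with 41.6 and 21.7 CPM in fibroblast-like cells of mutants and 19.1 and 41.1 CPM in those of controls. Smooth muscle-like cells had 24.3 and 38.7 CPM in mutants and 46.0 and 44.8 CPM in controls. Muscle-like cells of mutants had 44.6 and 29.4 CPM and mesothelial-like cells of controls 46.5 and 55.3 CPM. By cluster it differed more: cluster 10, mesothelial-like cells led by Col6a5 and Igfbp3, had 286 CPM in the 72 cells of control library 2, against 28.3 CPM in cluster 5, the larger mesothelial-like cluster, in that library. Cluster 11 of the fibroblast-like class had 158 CPM in control library 2. That cluster held 0 cells of both number 1 libraries, and it gave 67 of the 493 fibroblast-like cells of control library 2 and 14 of the 2392 of mutant library 2. In cluster 7, the muscle-like cells led by Actc1, Osr1 was at 13.8 and 15.2 CPM in mutants, against 47.8 and 32.7 CPM in cluster 4, the muscle-like cells led by Des and Ankrd1. Rab34, Rcn1 and Celf2 were most like Osr1 (r of 0.925, 0.918 and 0.911).

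The muscle-like cells of mutants and the mesothelial-like cells of controls were set side by side with no test, because the 2 classes hardly occur in the same genotype. Both had Tbx4, Tbx5, Tbx2, Foxf1, Nr2f1, Nr2f2 and Osr1 above the epithelial-like cells of the same library. In mesothelial-like cells of control library 1, the excess of Tbx2, Tbx5 and Nr2f1 lay within the counting interval of the epithelial-like level. For Tbx2 it was 89.5 CPM against 80.1 CPM, which came from 27 UMIs with an interval of 52.8 to 116 CPM. Both classes had Tcf21, Meox2 and Tbx3 far below the fibroblast-like level of the same library. Meox2 in muscle-like cells of mutants was nonetheless above the epithelial-like level of the same library, and so was Tbx3 in muscle-like cells of mutant library 2 and in mesothelial-like cells of both controls. The epithelial-like Tbx3 levels of controls rest on 3 and 2 UMIs. In control library 1 their counting interval (1.83 to 26 CPM) held the mesothelial-like level. For Meox2 in mutant library 2 the epithelial-like interval (1.2 to 6.16 CPM) held the muscle-like level. By class, Tbx2, Tbx3, Tbx5, Nr2f1 and Meox2 were higher in both libraries of muscle-like cells than in both of mesothelial-like cells, Foxf1, Nr2f2 and Osr1 were lower, and Tbx4 and Tcf21 overlapped. Not all of this held by cluster. Foxf1 was at 82.2 and 120 CPM in cluster 4 of mutants. In cluster 7 of mutants it was at 148 and 174 CPM, which overlapped the 172 and 146 CPM of mesothelial-like cells of controls. Tbx3 in cluster 7 was at 9.2 and 18.7 CPM in mutants, which overlapped the 10.7 and 11.3 CPM of mesothelial-like cells of controls. For Osr1 in control library 2, 484 of the 894 UMIs of mesothelial-like cells came from the 72 cells of cluster 10. Against cluster 5, with 24.9 and 28.3 CPM in 110 and 673 of the mesothelial-like cells of controls, the 44.6 and 29.4 CPM of muscle-like cells of mutants were not lower, and the counting intervals of mutant library 2 and control library 2 overlapped. Depth differed between these cells, with medians of 42321 and 15589 UMIs in muscle-like cells of mutants and 34788 and 20020 UMIs in mesothelial-like cells of controls.

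**Figure D3:**
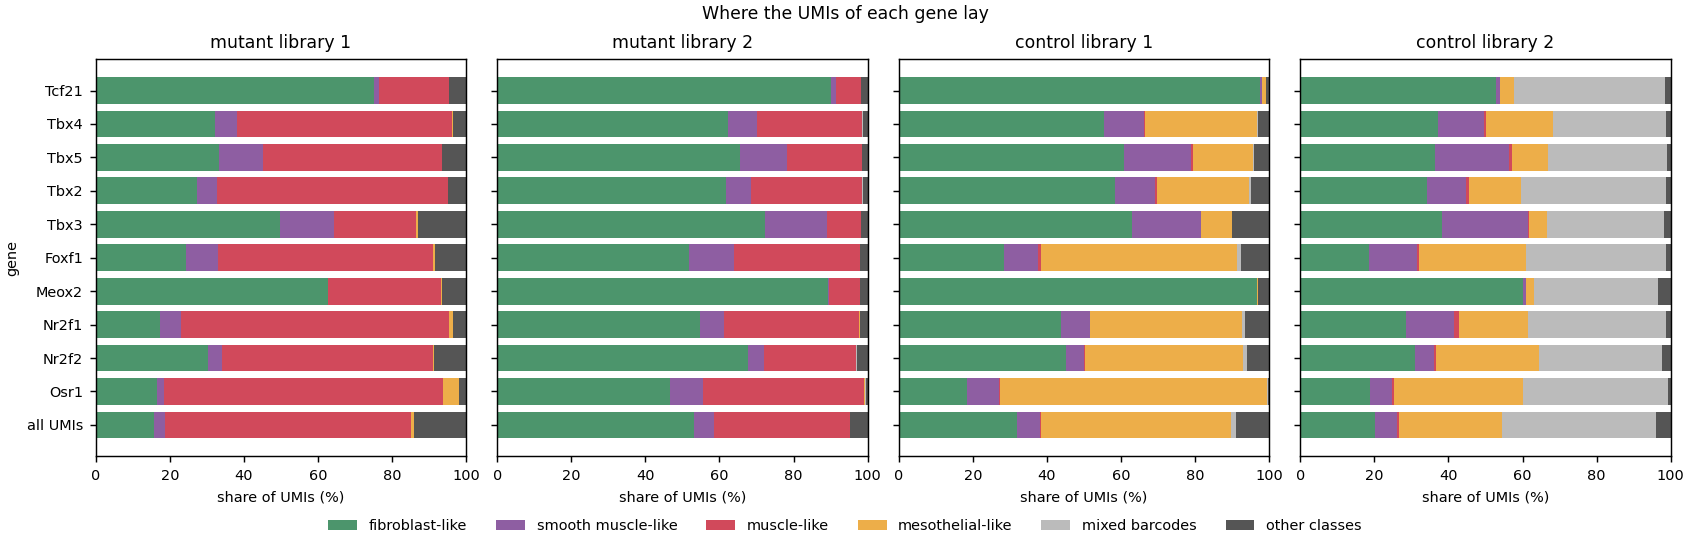
Share of the UMIs of each gene, in percent, that lay in each cell class, with the share of all UMIs as the lowest bar, for mutant library 1, mutant library 2, control library 1 and control library 2 from left to right. Fibroblast-like cells held 75.2 and 90.0% of Tcf21 UMIs in mutants and 97.5 and 52.9% in controls, and mixed barcodes held 40.8% of them in control library 2.

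Libraries differed in the classes that gave their UMIs. Fibroblast-like cells gave 15.7 and 53.0% of all UMIs in mutants and 32.0 and 20.3% in controls. They gave 62.7 and 89.3% of Meox2 UMIs in mutants and 96.6 and 60.2% in controls, and their shares of Tcf21 UMIs were likewise above their shares of all UMIs in every library. Muscle-like cells gave 66.4 and 36.5% of all UMIs in mutants, and 72.4 and 36.5% of Nr2f1 UMIs there. The mixed barcodes of control library 2 had 39.2 CPM of Tcf21, and the whole of that library had 39.8 CPM.

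Over all sorted cells, UMI counts were summed per library and 16246 genes were tested with edgeR's quasi-likelihood test and Benjamini-Hochberg adjustment. At an adjusted p under 0.05, 58 genes were called, 0.357% of those tested (0.0185% higher in mutants and 0.339% lower). Of the 10 transcription factors 0 were called and 1 had an unadjusted p under 0.05, as did 8.74% of all genes tested, and DESeq2 called 0. Their median difference was -0.03 (log2, mutant over control), against 0.03 over all genes tested. The count of 58 was not stable: it became larger with any 1 library left out, in fits that leave 1 library in a genotype.

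Nr2f1 was at 78.5 and 81.5 CPM in mutants and at 44.8 and 52.5 CPM in controls, and both mutants lay above both controls. Its difference was 0.78 ± 0.27 (log2, SE), which did not pass (edgeR adjusted p = 0.452, unadjusted p = 0.0274). It was the 1 gene of the 10 placed so, against 12.6% of all genes tested with both mutants above both controls. The mutant level was higher at each replicate number, by 0.80 and 0.63 (log2 ratio). An alternative fit with replicate number as a block called Nr2f1, but the numbers pair the libraries only by name.

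Tcf21 was at 10.6 and 58.9 CPM in mutants and at 79.4 and 39.8 CPM in controls. Mutant library 1 was the lowest of the 4 and mutant library 2 lay between the controls. The difference was -0.56 ± 0.80 (log2, SE, edgeR adjusted p = 0.980), and the log2 ratio of mutant to control was -2.85 for the number 1 libraries and 0.56 for the number 2 libraries. Without mutant library 2 the difference was -2.54 and passed (edgeR adjusted p = 0.00123, against 0.611 to 1 under the other alternatives), with the 1 mutant library left assumed to vary like the controls, and without mutant library 1 it was 0.25. The direction for Tcf21 in all sorted cells thus depended on 1 library.

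Foxf1 was at 101 and 140 CPM in mutants and at 167 and 141 CPM in controls, and Nr2f2 was at 211 and 229 CPM in mutants and at 343 and 241 CPM in controls. In both genes, both mutants lay below both controls, as in 17.8% of all genes tested, and neither passed (-0.24 ± 0.33 and -0.31 ± 0.31, log2, SE, edgeR adjusted p = 0.980 and 0.979). The groups overlapped for the other 6 genes. Tbx4 was at 101 and 98.3 CPM in mutants and at 135 and 81.9 CPM in controls, Tbx5 at 93.8 and 105 CPM in mutants and at 122 and 95 CPM in controls, and Tbx2 at 185 and 159 CPM in mutants and at 185 and 130 CPM in controls. Tbx3 was at 45.9 and 76.5 CPM in mutants and at 66.8 and 62.6 CPM in controls, Meox2 at 10.4 and 24.5 CPM in mutants and at 24.8 and 13.9 CPM in controls, and Osr1 at 39.3 and 24.6 CPM in mutants and at 33.1 and 44.1 CPM in controls. In each of these 6 genes the ranges of mutants and controls crossed. Tbx4, Tbx5, Tbx3 and Meox2 differed by at most 0.03 in size (-0.02, -0.03, 0.03 and 0.03, with SE of 0.28, 0.27, 0.37 and 0.51), Tbx2 by 0.21 ± 0.26 and Osr1 by -0.26 ± 0.29. Summed markers of mesothelial-like cells moved with genotype, at 998 and 406 CPM in mutants and 4450 and 3320 CPM in controls over 21 genes, and those of muscle-like cells at 1550 and 721 CPM in mutants and 224 and 264 CPM in controls over 12 genes. Of the 21, 20 and 21 had a UMI in mutants and all 21 in controls, and of the 12, all 12 in mutants and 11 and 12 in controls. Their part in these differences was not tested.

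**Figure D4:**
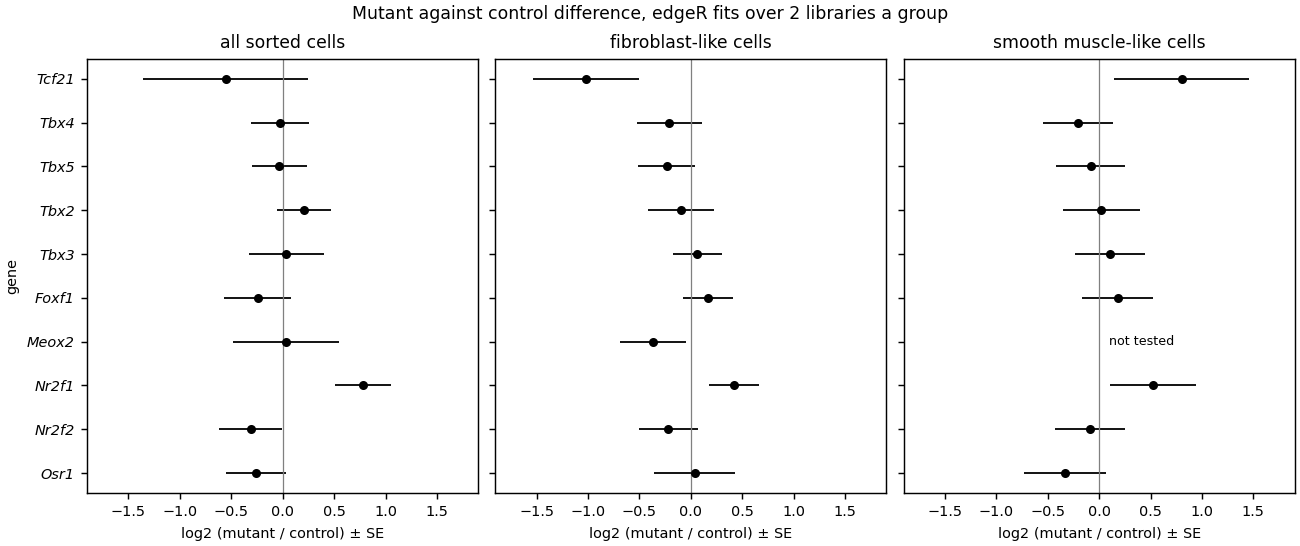
Difference of mutant against control for each gene (log2 ratio, horizontal axes, with SE bars) in edgeR fits over 2 mutant and 2 control libraries, in all sorted cells, fibroblast-like cells and smooth muscle-like cells. None passed an adjusted p of 0.05, and Meox2 was not tested in smooth muscle-like cells, where its counts were too low.

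In fibroblast-like cells, 0 of 12496 genes were called by edgeR (0% of those tested), 259 or 2.07% had an unadjusted p under 0.05 and DESeq2 called 8. Of the 10 transcription factors 0 were called, 0 had an unadjusted p under 0.05 and DESeq2 called 0. The median of the 10 was -0.15 and that of all genes tested 0.02 (log2, mutant over control). The count over all genes was 331 without mutant library 1, 99 without control library 1 and 53 without control library 2, and 0 of the 10 were called in any of these fits. Tcf21 differed by -1.02 ± 0.52 (log2, SE, edgeR adjusted p = 1, unadjusted p = 0.0871), and by -0.30 without control library 1. By replicate number, its log2 ratio was -2.24 and -0.05. Nr2f1 differed by 0.42 ± 0.25 and Meox2 by -0.37 ± 0.32, and the other 7 genes by 0.24 or less in size. The 23 fibroblast markers summed to 7770 and 6190 CPM in mutants and 10100 and 11200 CPM in controls, and the 11 pericyte markers to 260 and 133 CPM in mutants and 191 and 482 CPM in controls, with a UMI of every marker of both lists in every library. Their part in the differences was not tested.

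In smooth muscle-like cells, control library 1 held 19 cells, under the 20 set for a test, and the fit was run after lowering that number to 15. Of 10474 genes 0 were called by edgeR (0%), 71 or 0.678% had an unadjusted p under 0.05 and DESeq2 called 0. Of the 9 transcription factors tested 0 were called, 0 had an unadjusted p under 0.05 and DESeq2 called 0. Their median difference was 0.02, against 0.03 over all genes tested (log2, mutant over control). Tcf21 differed by 0.80 ± 0.66, Nr2f1 by 0.52 ± 0.41 and Osr1 by -0.33 ± 0.40 (log2, SE), and the other 6 by 0.21 or less in size. Osr1 had both mutants below both controls, as did 14.7% of all genes tested. For 0 of the 10 both mutants lay above both controls, against 6.27% of all genes tested. The count over all genes was 128 without mutant library 1 and 55 without mutant library 2.

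The genotype difference was then compared between fibroblast-like and smooth muscle-like cells in 1 model with library as a block. Of 12114 genes 0 were called by edgeR (0%), with 147 or 1.21% at an unadjusted p under 0.05, and no DESeq2 fit was run here. Tcf21 had a difference of -1.33 ± 0.40 between the classes (log2, fibroblast-like minus smooth muscle-like, SE), with an unadjusted p of 0.0122 and an edgeR adjusted p of 1. Its level in smooth muscle-like cells was near that of epithelial-like cells. That level rested on 3 and 64 UMIs in mutants and on 4 and 22 UMIs in controls. The difference in fibroblast-like cells was -0.30 without control library 1. The other 9 genes differed by 0.25 or less in size.

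Related genes were counted from lists chosen for this tissue, and in all sorted cells 0 genes of any list were called by edgeR. In the T-box family 8 of 17 genes in the files were tested there, 4 higher and 4 lower, with 1 at an unadjusted p under 0.05 (8.74% of all genes tested) and a median of 0.01 (log2, mutant over control). Tbx18, a T-box gene of mesothelial and other coelomic linings, had 8.16 and 5.99 CPM in mutants and 13.6 and 11.5 CPM in controls. It differed by -0.77 ± 0.25 (edgeR adjusted p = 0.404). The list of 15 close paralogs includes all 10 genes, so its counts largely repeat theirs. All 15 were tested, 8 higher and 7 lower. Of these, 2 had an unadjusted p under 0.05, Msc and Nr2f1, which is itself of the 10 genes. Msc, the closest relative of Tcf21, had 3.82 and 2.74 CPM in mutants and 0.612 and 0.517 CPM in controls (2.59 ± 0.46, edgeR adjusted p = 0.122). Foxf2 had 23.5 and 33.5 CPM in mutants and 25.1 and 21.3 CPM in controls.

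Of 61 other transcription factors of lung and visceral mesoderm 57 were tested in all sorted cells, 30 higher and 27 lower, with a median of 0.03 and 9 at an unadjusted p under 0.05, against 8.74% of all genes tested. Myocd, a coactivator of smooth muscle genes, had 63.2 and 34.5 CPM in mutants and 20.2 and 22.8 CPM in controls (1.2 ± 0.29, edgeR adjusted p = 0.240). Gata3 had 0.573 and 0.731 CPM in mutants and 4.16 and 2.70 CPM in controls, and Ebf1 had 7.35 and 5.70 CPM in mutants and 22.1 and 11.7 CPM in controls. In fibroblast-like cells Ebf2 had the smallest p of the list, with 0.304 and 1.54 CPM in mutants and 0 and 27.8 CPM in controls. It is a leading gene of cluster 11, of which both number 1 libraries held 0 cells.

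Among 14 genes that mouse studies place under Tbx4 and Tbx5 or under Foxf1 in lung mesenchyme, 5 were higher and 9 lower in all sorted cells, and the median was -0.17 against 0.03 over all genes. Of the 14, 5 had an unadjusted p under 0.05, against 8.74% of all genes tested. Several of the 14 also stand in the marker lists of cell classes. Class shares differed between the genotypes, and their part in these values was not tested. Fgf10, the growth factor that directs branching, had 28.5 and 31.9 CPM in mutants and 20.7 and 14.4 CPM in controls (0.90 ± 0.27, edgeR adjusted p = 0.341). Gli1, a hedgehog target, had 43.9 and 28.5 CPM in mutants and 93.2 and 55.4 CPM in controls (-0.97 ± 0.28, edgeR adjusted p = 0.327). Wnt2b had 0.954 and 0.495 CPM in mutants and 4.28 and 3.69 CPM in controls (-2.45 ± 0.47, edgeR adjusted p = 0.139). In all 3 the groups did not overlap, as for 12.6% (mutants above) and 17.8% (mutants below) of all genes tested, and none passed. In fibroblast-like cells 4 of 12 tested were higher and 8 lower, and Bmp4 had 55.9 and 48.6 CPM in mutants and 84.0 and 69.0 CPM in controls (-0.47 ± 0.23, edgeR adjusted p = 1). Over the 6 lists, 0 genes were called by edgeR in fibroblast-like cells, where list medians ran between -0.18 and 0.03 and that of all genes tested was 0.02. Likewise 0 were called in smooth muscle-like cells, with list medians between -0.22 and 0.20 and 0.03 over all genes tested. The paralog list includes all of the 10 genes themselves, and the T-box list includes Tbx2, Tbx3, Tbx4 and Tbx5.

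Of Tcf3, Tcf4 and Tcf12, with which Tcf21 forms dimers, 3 of 3 were higher in all sorted cells of mutants, with a median of 0.31 (log2) against 0.03 over all genes tested, and 0 were called or had an unadjusted p under 0.05. In both fibroblast-like and smooth muscle-like cells 2 were higher and 1, Tcf4, was lower (-0.16 and -0.32), with medians of 0.03 and 0.20. Tcf3 had 58.0 and 68.7 CPM in mutants and 50.1 and 52.9 CPM in controls. Tcf4 had 258 and 221 CPM in mutants and 252 and 186 CPM in controls, and Tcf12 had 144 and 114 CPM in mutants and 128 and 91.7 CPM in controls. Of 8 retinoid receptor and cofactor genes that act with Nr2f1 and Nr2f2, 4 were higher and 4 lower in all sorted cells, with 0 called and a median of 0.00 (log2). Of these 8, 1 had an unadjusted p under 0.05, against 8.74% of all genes tested. Rara had 52.8 and 48.7 CPM in mutants and 37.3 and 35.3 CPM in controls (0.55 ± 0.22, edgeR adjusted p = 0.547).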

How the data were processed

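The deposited values were raw UMI counts (whole numbers) for each gene in each cell barcode, made by the authors with Cell Ranger 6.0.2 on mm10, per the submitters' processing notes. How barcodes were called, whether strand was used and which annotation was counted is not given in the sources used here. Barcodes with at least 1000 genes and at most 15% mitochondrial UMIs were kept, and the highest doublet scores removed at 0.8% per 1000 barcodes, which left 8470 of the deposited barcodes, because Scrublet's automatic threshold (scanpy 1.11.5) marked only 9 of 8733. Cells were clustered (Leiden, resolution 0.4, 13 clusters) on 3000 variable genes without the 10 genes and 462 cell-cycle genes. Mitochondrial, haemoglobin, ribosomal and sex-linked genes were also left out. Before clustering, the mean of each gene was subtracted within each replicate number, mutant and control together, so the classes make use of that number. Clusters took an X-like name from the marker list that had most members, and at least 3, present in 10% of their cells and 2-fold above the other clusters. A cluster that met this for smooth muscle was named muscle-like where at least 3 sarcomere-list genes passed too, as in cluster 7, with 6 of 12 sarcomere and 12 of 16 smooth muscle markers. Clusters left as mixed had at least 66% of markers within 2-fold of the rest of their main library, a rule used with earlier results known.

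Levels are CPM of UMIs summed per class and library, with exact Poisson intervals (95%) that cover counting error only, and CPM of different genes are not compared. Sums were tested with edgeR 4.0.16 in R 4.3.3 (filterByExpr, TMM, glmQLFit, glmQLFTest, two-sided, Benjamini-Hochberg over all genes tested). The SE printed with an edgeR difference was worked back from the test. It is the size of the log2 difference divided by the square root of the quasi-likelihood F. DESeq2 1.42.0, other filters and scalings, a replicate block and omitted libraries were alternatives. The 2 libraries of a genotype were counted separately, since their counts differed by more than counting noise (chi-square over its degrees of freedom of 219.8 in mutants and 105.4 in controls), which does not say whether they came from separate pools. On simulated counts with known changes of 2-, 4-, 8- and 16-fold, edgeR found 8, 76, 90 and 100% of them in the all-cell design, with 5 false calls over 15684 genes. The corresponding shares for the fibroblast-like design were 20, 86, 98 and 100%, with 3 false calls over 12038 genes. The simulated spread followed the dispersion trend, with no departure of single genes from it. Changes were placed only in genes with at least 10 expected UMIs in the smallest library. The shares and false calls therefore need not hold for genes with more spread or fewer UMIs. Locations came from GENCODE M21, which matched 32158 of 32285 gene IDs. The text names the 10 genes, genes overlapping or starting within 10 kb of them, up to 4 genes with the smallest p of each list, and the 3 genes most like each. Foxf2 and the 3 partners of Tcf21 fall under the list rule. The 10 genes, the lists and the markers were chosen with earlier results of these data known.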

Additional observations from a re-analysis of the deposited data

How the results depend on the processing

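Beside the fits reported, the counts of called genes moved as follows. Over all sorted cells (58 reported), they were 685 with no filter on low counts, 525 with the replicate block, 491 with DESeq2, 37 with mixed barcodes left out and 126 with cells of other types left out, and between 74 and 1097 with 1 library left out. In fibroblast-like cells (0 reported) they were 117, 4 and 8 with no filter, the replicate block and DESeq2, and between 0 and 331 with 1 library left out. In smooth muscle-like cells (0 reported) they were 4 with no filter, 2 with the replicate block and 1 with equal numbers of cells, and between 0 and 128 with 1 library left out. The class comparison gave 19 with no filter. With 1 library left out, the lone library of an arm was assumed to vary like the other group. Of the 10 genes, Nr2f1 in all sorted cells was called with the replicate block (0.79, edgeR adjusted p = 0.0488), where other alternatives gave 0.58 to 1.03 with an adjusted p of 0.0639 to 1, and Tcf21 without mutant library 2 (-2.54, adjusted p = 0.00123), where others gave 0.611 to 1. The block changed no other call of these 10. Replicate numbers paired the libraries only by name, with 2 pairs and a correlation of deviations of 0.36, and the reported fits have no block.

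Directions that turned in all sorted cells were Tbx3 (-0.04) and Meox2 (-0.09) with the replicate block, Tbx4 (0.01) and Tbx5 (0.01) with DESeq2, Tbx3 (-0.08) and Meox2 (-0.33) with equal numbers of cells, Tbx3 (-0.02) without mixed barcodes, and Tbx4 (0.03) and Tbx5 (0.00) without other types. In fibroblast-like cells they were Tbx3 (-0.24) and Osr1 (-0.17) with doublets kept, Tbx3 (-0.20) and Osr1 (-0.08) at resolution 0.8, and Tbx3 (-0.02) without cluster 11, a choice made after seeing the data like the next. They were also Tbx3 (-0.21) in cluster 2 alone, and Tcf21 (0.46), Tbx3 (-0.01), Foxf1 (-0.05) and Meox2 (0.22) in cluster 3 alone. In smooth muscle-like cells they were Tbx5 (0.14) and Foxf1 (-0.02) with equal numbers and Tbx5 (0.04) with doublets kept, and in the class comparison Tbx3 (0.01) and Foxf1 (0.04) with no filter. With 1 library left out, all sorted cells gave Tcf21 between -2.54 and 0.25, Tbx4 between -0.25 and 0.25, Tbx5 between -0.29 and 0.18, Tbx3 between -0.59 and 0.47, Foxf1 between -0.69 and 0.10, Meox2 between -0.95 and 0.61, and Osr1 between -0.53 and 0.10. Fibroblast-like cells gave Tbx4 between -0.48 and 0.13, Tbx2 between -0.35 and 0.23, Meox2 between -0.74 and 0.09, and Osr1 between -0.37 and 0.76. Smooth muscle-like cells gave Tbx4 between -0.40 and 0.00, Tbx5 between -0.28 and 0.09, Tbx2 between -0.27 and 0.28, Tbx3 between -0.08 and 0.30, Foxf1 between -0.01 and 0.39, Nr2f2 between -0.27 and 0.08, and Osr1 between -0.96 and 0.01. The cause was not tested for any of these. Of 50 levels by class recomputed at 5000 UMIs per cell, 40 moved by less than the spread between libraries and 10 moved by more. Depth limits the low values most: number 1 libraries held 411 and 281 cells, and several classes held under 30.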
